A study of Mus musculus with 12 samples.

Results

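The 9 genes described here encode lysosomal enzymes that take sulfated glycosaminoglycans and the sugar chains of glycoproteins apart: Gusb, Naglu, Sgsh, Ids, Idua, Arsb, Galns, Hgsnat and Man2b1. They were chosen by symbol, and all 9 were found once each among the 38087 gene models of the deposited table of raw counts. Their RNA was measured in sciatic nerve of mice in 4 groups of 3 libraries each. The dKO mice (Dhh-Cre+:Tfebflox/flox;Tfe3KO) lacked Tfe3 in every cell and carried a Cre recombinase to delete floxed Tfeb, driven by Dhh, which Schwann cells and their precursors express. The control mice (Dhh-Cre-:Tfebflox/flox;Tfe3+) had the same floxed Tfeb without Cre and kept Tfe3. Injured nerve, called 5DPI, was the part beyond a transection taken 5 days after the cut, and intact nerve was the uncut nerve of the other side. The labels state that the epineurium, the outer sheath, was taken off intact nerves and state no such step for injured ones. The groups are thus dKO 5DPI, control 5DPI, dKO intact and control intact, and the labels give no ages for the mice.

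Glycosaminoglycans are long chains of alternating sugars carried by proteoglycans, and lysosomes degrade them from the free end, each enzyme removing a single sulfate or sugar and so exposing the bond for the next. Ids (iduronate sulfatase) and Idua (alpha-L-iduronidase) act in turn on heparan and dermatan sulfate, and Sgsh, Hgsnat and Naglu free the glucosamines of heparan sulfate. Arsb and Galns remove sulfates from the galactosamines of dermatan and chondroitin sulfate, Galns also from keratan sulfate, and Gusb (beta-glucuronidase) removes glucuronic acid from several of these chains. Man2b1 is the lysosomal alpha-mannosidase of glycoprotein sugars. Hgsnat is a membrane enzyme that adds an acetyl group for Naglu to act on, so it is not a hydrolase, unlike the other members. Loss of any of them causes a lysosomal storage disease in people. In injured nerve, Schwann cells and macrophages digest myelin, and chondroitin sulfate proteoglycans of the nerve are known to hinder axon growth. TFEB and TFE3 are transcription factors that bind the letters CACGTG within a longer site near many lysosomal genes.

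The promoters bear on these members because both deleted factors recognise those letters. RefSeq promoter windows (GRCm38.p6, 250 bases before to 50 bases after the gene start) were matched by symbol for 7 of the 9 members, without Galns and Hgsnat. The letters CACGTG, which read the same on both strands, stood in 2 of the 7 windows, those of Naglu and Sgsh. Among all 32851 promoter windows 7.15% held them. The longer TCACGTGA, which contains CACGTG and is its own reverse complement too, stood in 0 of the 7 windows and in 0.974% of all. A match describes letters only and shows no binding. The windows of Ids, Idua, Arsb and Man2b1 held no match, and Galns and Hgsnat, which were called lower in dKO nerve at 5 days, had no window to search. The windows of Naglu and Sgsh are printed with CACGTG in capitals. That of Gusb, a member that was called lower in dKO nerve at 5 days in every fit run, is printed beside them and holds no such match.
Naglu, chr11:101069844-101070143, plus strand: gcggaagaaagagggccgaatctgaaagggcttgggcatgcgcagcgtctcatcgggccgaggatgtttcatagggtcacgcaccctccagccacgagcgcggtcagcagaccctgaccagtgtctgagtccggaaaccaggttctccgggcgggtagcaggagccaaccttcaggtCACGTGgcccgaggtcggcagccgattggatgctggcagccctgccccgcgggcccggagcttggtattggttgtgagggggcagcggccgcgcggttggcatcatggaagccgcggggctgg
Sgsh, chr11:119355461-119355760, minus strand: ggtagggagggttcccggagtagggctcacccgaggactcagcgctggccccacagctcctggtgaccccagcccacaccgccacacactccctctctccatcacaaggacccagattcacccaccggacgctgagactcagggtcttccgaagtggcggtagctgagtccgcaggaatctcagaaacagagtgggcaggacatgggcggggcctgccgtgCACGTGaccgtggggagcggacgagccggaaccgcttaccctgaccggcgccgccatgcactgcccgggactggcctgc
Gusb, chr5:130003000-130003299, minus strand: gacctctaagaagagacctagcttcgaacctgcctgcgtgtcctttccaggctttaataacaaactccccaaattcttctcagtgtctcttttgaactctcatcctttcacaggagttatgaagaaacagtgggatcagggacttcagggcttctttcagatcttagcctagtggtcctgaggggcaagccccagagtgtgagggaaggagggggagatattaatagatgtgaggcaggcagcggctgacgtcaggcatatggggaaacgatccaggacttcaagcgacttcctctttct
Counted from the RefSeq start that sets each window, the matches began 73 bases before the start of Naglu and 29 bases before that of Sgsh. The GENCODE models described next start elsewhere: against those starts the Naglu match began 9 bases inside the gene and the Sgsh match 3 bases before it.

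By symbol, the members lie (GENCODE M21, GRCm38, the mm10 build) on chromosome 5 (Gusb, 129989011 to 130003049, and Idua, 108660331 to 108684557), chromosome 11 (Naglu, 101070012 to 101077672, and Sgsh, 119343425 to 119355536), chromosome X (Ids, 70343069 to 70365084), chromosome 13 (Arsb, 93771630 to 93943016) and chromosome 8 (Galns, 122578242 to 122611463, Hgsnat, 25944453 to 25976753, and Man2b1, 85083270 to 85098282). Counts are for whole gene models. No source used here gives the strand setting of the counting, and Card14, on the opposite strand, shares 21.6% of the exon bases of Sgsh. Reads of Sgsh and Card14 can therefore not be told apart there. Gm26527 and Gm47210, also on the opposite strand, share 32.3% and 7.67% of the exon bases of Arsb, and Slc26a1 and Dgkq share 3.35% and 2.95% of those of Idua. The values of Sgsh and Arsb are uncertain to that extent.

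Library totals ran from 15430999 to 35845371 counts, and the members had 255 to 5285 counts each in a library. All 9 members passed the filter on low counts that left 22384 gene models for testing. Levels are given as CPM, counts scaled to a common library size with TMM factors, and changes as log2 fold changes with a standard error (SE) from edgeR's quasi-likelihood fit. A change is called where its p, adjusted by Benjamini-Hochberg over all 22384 models, is below 0.05. Tfe3 averaged 51.9 CPM in dKO and 61.4 CPM in control nerve at 5 days, and Tfeb 21.2 CPM in dKO and 20.2 CPM in control nerve, so whole-gene counts still read both targeted genes in dKO nerve. Neither passed the test of genotype at 5 days (edgeR adjusted p = 0.13 for Tfe3 and 0.88 for Tfeb) or in intact nerve (0.84 for Tfe3 and 0.86 for Tfeb). Libraries also differed in ways that the labels do not explain. Control 5DPI replicate 1 held 10712 counts of Xist, against 23 or fewer in each other library. It held 244 counts of Y-linked genes, against 1907 or more in each other library. All 3 dKO 5DPI libraries and control 5DPI replicate 4 formed a second library set, with reads on 159 to 337 olfactory receptor genes at equal depth against 47.9 to 65.9 in the other libraries. At 5 days the library set and the genotype therefore coincide except for that single control library, so the members' differences at 5 days are also given with the set as a term in the fit or within the second set. Within their groups, 2 libraries stood apart in a chi-square per gene between replicates. These were control 5DPI replicate 1 (58.7 and 58.3 against its partners, 19.5 between those) and control intact replicate 2 (71.2 and 47.1, against 17.1). Without control intact replicate 2 the counts of members called were as in the full fit in all 5 comparisons.

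**Figure D1:**
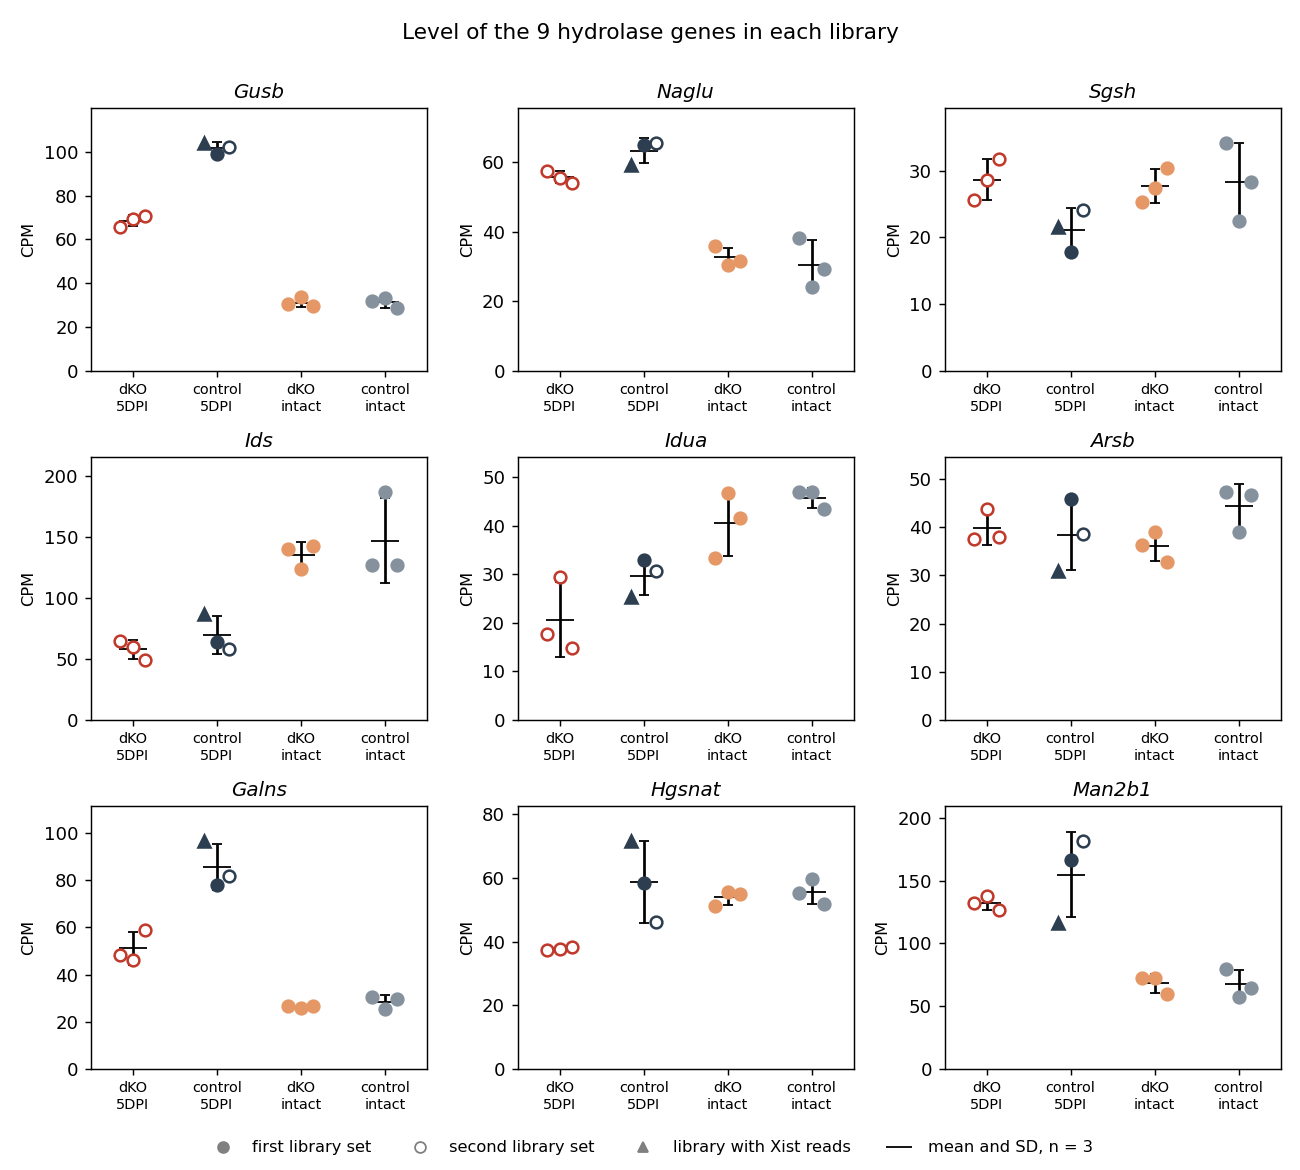
Level in CPM (vertical axes from 0) of each of the 9 genes in every library, by group along the horizontal axis, with bars for the mean and SD of 3 libraries. Open points are the second library set and the triangle is the control library with 10712 Xist counts. Gusb, Galns, Naglu and Man2b1 stand higher in both injured groups, Ids and Idua lower, and Gusb, Galns and Hgsnat stand lower in dKO 5DPI than in control 5DPI.

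Per kilobase of exon (union of all annotated transcripts), Ids was the most abundant member in intact nerve and Sgsh and Arsb were among the least. In dKO intact nerve Ids stood at 26.5 ± 2.01 CPM per kilobase and in control intact nerve at 28.8 ± 6.83 (SD, n = 3 each). Hgsnat came second in both, at 16.3 ± 0.729 in dKO and 16.8 ± 1.20 CPM per kilobase in control intact nerve. No library of Hgsnat reached a library of Ids in these groups. Gusb, Sgsh and Arsb held the last 3 places in both genotypes, between 5.98 and 7.35 CPM per kilobase, and overlapped their neighbours among these. In injured nerve the order was another. Naglu (21.0 ± 0.663 CPM per kilobase) and Galns (19.3 ± 2.62) led in dKO 5DPI and overlapped each other. Galns alone led in control 5DPI at 32.3 ± 3.74 CPM per kilobase, with no overlap with Naglu at 23.8 ± 1.33. Ids was the sixth in both injured groups, at 11.3 ± 1.56 CPM per kilobase in dKO and 13.6 ± 3.00 in control nerve. The order depends on the exon length used, which was 8026 bases for Man2b1 and 2650 for Galns. Without division by length, Man2b1 averaged 132 CPM in dKO 5DPI and 155 CPM in control 5DPI. Galns averaged 51.2 and 85.6 CPM there.

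Transection raised and lowered these genes in a way that split them into a rising group, a falling group and a group with little change. In dKO nerve 4 of the 9 rose and 3 fell, and in control nerve 4 rose and 3 fell. Gusb, Naglu, Galns and Man2b1 rose in both genotypes, and Ids and Idua fell in both. Hgsnat fell in dKO nerve and Sgsh in control nerve, and Arsb passed in neither. Of all 22384 models tested, 44.7% were called in dKO nerve (22% higher and 22.6% lower) and 46.8% in control nerve (24.4% higher and 22.4% lower), which is the background for 7 of 9 members called in each. Injured and intact groups did not overlap for 7 members in dKO and 6 in control nerve, against 61% and 53.3% of all models. The median change of the members was 0.14 in dKO and 0.08 in control nerve, against 0.05 and 0.09 over all models.

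Gusb, which clips glucuronic acid, had the steadiest rise. It stood at 65.8, 69.2 and 70.5 CPM in dKO 5DPI, against 30.3, 33.5 and 29.5 CPM in dKO intact nerve. In control 5DPI it stood at 104, 99.0 and 102 CPM, against 32.0, 33.3 and 28.5 CPM in control intact nerve. Intact libraries of both genotypes lay together, and the injured ones lay apart from them and from each other by genotype. The log2 change was 1.14 (SE 0.094, edgeR adjusted p = 2.8e-07) in dKO and 1.70 (SE 0.095, adjusted p = 3.7e-09) in control nerve.

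Galns, the sulfatase of chondroitin and keratan sulfate, followed the same order of groups. It stood at 48.1, 46.2 and 59.1 CPM in dKO 5DPI, against 26.6, 26.0 and 26.5 CPM in dKO intact nerve. In control nerve it stood at 96.9, 78.2 and 81.8 CPM at 5 days, against 30.7, 25.6 and 29.4 CPM in intact libraries. Every injured library lay above every intact one, and the 3 injured control libraries lay highest. The change was 0.95 (SE 0.12, edgeR adjusted p = 2.1e-05) in dKO and 1.58 (SE 0.12, adjusted p = 1.0e-07) in control nerve.

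Naglu, which removes N-acetylglucosamine from heparan sulfate, rose by a smaller amount. Its level was 57.7, 55.4 and 54.2 CPM in dKO 5DPI, against 35.8, 30.5 and 31.6 CPM in dKO intact nerve. In control nerve it was 59.3, 65.1 and 65.7 CPM at 5 days, against 38.3, 24.0 and 29.3 CPM intact. Injured and intact libraries did not overlap in either genotype. Its change was 0.77 (SE 0.14, edgeR adjusted p = 0.00048) in dKO and 1.05 (SE 0.14, adjusted p = 2.6e-05) in control nerve. Man2b1, the mannosidase, stood at 132, 137 and 126 CPM in dKO 5DPI, against 72.6, 72.5 and 59.3 CPM in dKO intact nerve. In control nerve it stood at 116, 166 and 182 CPM at 5 days, against 79.9, 57.2 and 64.6 CPM intact. The lowest of the injured control libraries was replicate 1, which still lay above every intact library. The changes of Man2b1 were 0.95 (SE 0.16, edgeR adjusted p = 0.00024) in dKO and 1.20 (SE 0.16, adjusted p = 2.3e-05) in control nerve.

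The enzymes that act in turn on iduronic acid fell together after injury. Ids had 64.5, 59.8 and 48.9 CPM in dKO 5DPI, against 140, 124 and 143 CPM in dKO intact nerve. In control nerve Ids had 87.0, 63.7 and 58.1 CPM at 5 days, against 127, 187 and 127 CPM intact. No injured library reached an intact one. The change of Ids was -1.23 (SE 0.18, edgeR adjusted p = 8.1e-05) in dKO and -1.08 (SE 0.18, adjusted p = 0.00019) in control nerve. Idua had 17.7, 29.3 and 14.7 CPM in dKO 5DPI, against 33.4, 46.7 and 41.6 CPM in dKO intact nerve. In control nerve Idua had 25.2, 32.9 and 30.7 CPM at 5 days, against 47.0, 46.9 and 43.4 CPM intact. Injured libraries lay below intact ones in both genotypes, with dKO 5DPI replicate 3 apart from the other dKO libraries. The change of Idua was -0.97 (SE 0.21, edgeR adjusted p = 0.0021) in dKO and -0.63 (SE 0.21, adjusted p = 0.024) in control nerve. Without control 5DPI replicate 1 the call of Idua in control nerve ended (-0.53, adjusted p = 0.088).

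Of the remaining 3 members, Hgsnat and Sgsh passed in a single genotype each. Hgsnat stood at 37.3, 37.6 and 38.2 CPM in dKO 5DPI, against 51.2, 55.6 and 55.1 CPM in dKO intact nerve. In control nerve it stood at 71.8, 58.3 and 46.1 CPM at 5 days, against 55.3, 59.8 and 51.9 CPM intact. The injured dKO libraries lay close together below all others, while the injured control libraries spread around the intact ones. Hgsnat changed by -0.52 (SE 0.13, edgeR adjusted p = 0.0057) in dKO nerve and by 0.08 (SE 0.13, adjusted p = 0.66) in control nerve. Sgsh, the sulfamidase of heparan sulfate, stood at 25.6, 28.6 and 31.8 CPM in dKO 5DPI, against 25.2, 27.4 and 30.4 CPM in dKO intact nerve. In control nerve Sgsh stood at 21.5, 17.7 and 24.2 CPM at 5 days, against 34.2, 22.4 and 28.3 CPM intact, so these groups overlapped. Its change was 0.05 (SE 0.16, edgeR adjusted p = 0.83) in dKO and -0.42 (SE 0.16, adjusted p = 0.048) in control nerve, and the call in control nerve was kept in 4 of the 12 fits that left out a library (without dKO 5DPI replicate 4, control 5DPI replicate 4, dKO intact replicate 2 or control intact replicate 2). Arsb, the sulfatase of dermatan and chondroitin sulfate, ranged from 37.6 to 43.8 CPM in dKO 5DPI and from 32.8 to 39.0 CPM in dKO intact nerve. In control nerve it ranged from 31.0 to 45.8 CPM at 5 days and from 39.0 to 47.4 CPM intact. Its changes of 0.14 (95% interval -0.16 to 0.44) in dKO and -0.21 (-0.51 to 0.10) in control nerve did not pass.

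Both injury counts have limits that come from the libraries. The 3 injured dKO libraries belong to the second set and the intact ones to the first, and with the set as a term the dKO counts were 2 higher (Gusb, 1.13, and Galns, 1.05) and 0 lower. Over all 22384 models that fit called 4299 for injury in dKO nerve, against 9997 without the term. Its set term is estimated from the injured control libraries, replicate 4 against replicates 1 and 2, and not from dKO nerve. The SE of Idua was 0.39 with the term and 0.21 without it. The estimates of Idua (-1.05), Ids (-0.85), Naglu (0.69) and Man2b1 (0.59) kept their direction in that fit without passing (edgeR adjusted p from 0.069 to 0.16). Hgsnat was at -0.02 (SE 0.18, adjusted p = 0.95), against -0.52 without the term. In control nerve the counts were 4 higher and 1 lower (Ids) both without control 5DPI replicate 1 and with only replicate 4 at 5 days. The difference in epineurium between intact and injured nerves cannot be told apart from injury.

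At 5 days after transection 3 of the 9 members, Gusb, Galns and Hgsnat, were lower in dKO than in control nerve and 0 were higher. Of all models tested 12.1% were called, 3.12% higher and 8.97% lower. The median difference of the members was -0.27, against -0.02 over all models. Gusb differed by -0.57 (SE 0.092, edgeR adjusted p = 0.0011), a level 1.49 times lower in dKO nerve. Galns differed by -0.74 (SE 0.12, adjusted p = 0.0011), 1.68 times lower. Hgsnat differed by -0.64 (SE 0.13, adjusted p = 0.0059), 1.56 times lower. For each of these 3 genes all dKO libraries lay below all control libraries at 5 days. In total 5 of the 9 members had groups that did not overlap, against 30.5% of all models.

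These 3 calls did not hold equally in the fits that take the library set into account. All 3 dKO libraries at 5 days lie in the second set, so the first set gives no comparison of genotypes. The comparison within the second set rests on 1 control library. With the set as a term the genotype difference at 5 days rests on that same library, so these fits are not separate checks. Within the second set, where the 3 dKO libraries meet control replicate 4, Gusb differed by -0.58 (edgeR adjusted p = 0.039) and Galns by -0.68 (adjusted p = 0.042), and both kept their call. Hgsnat differed by -0.29 there (adjusted p = 0.34) and lost it. For Hgsnat the dKO libraries had 37.3 to 38.2 CPM and the control library of that set 46.1 CPM, while the control libraries of the first set had 71.8 and 58.3 CPM. For Gusb the dKO libraries had 65.8 to 70.5 CPM and the same control library 102 CPM, between the 99.0 and 104 CPM of the other controls. With the set as a term in the fit of all libraries Gusb was called (-0.58, adjusted p = 0.030), Galns narrowly missed the threshold (-0.68, adjusted p = 0.053) and Hgsnat was not called (-0.29, adjusted p = 0.43). Over all 22384 models that fit called 515 at 5 days, against 2707 without the term.

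The other 6 members did not pass at 5 days. Naglu had -0.18 (edgeR adjusted p = 0.42) with groups that did not overlap, 54.2 to 57.7 CPM in dKO against 59.3 to 65.7 CPM in control nerve. Sgsh had 0.44 (adjusted p = 0.10; called higher with DESeq2, 0.47, adjusted p = 0.049), with 25.6 to 31.8 CPM in dKO against 17.7 to 24.2 CPM in control nerve, also without overlap. Card14, its opposite-strand neighbour, had 0.30 (adjusted p = 0.42). Idua had -0.52 (adjusted p = 0.13), and passed where dKO 5DPI replicate 3, the highest of its group, was left out (-0.87, adjusted p = 0.0083). Ids had -0.27 (95% interval -0.65 to 0.11), Man2b1 -0.23 (-0.57 to 0.11) and Arsb 0.05 (-0.26 to 0.35), and these 3 overlapped between genotypes. Without control 5DPI replicate 1 the difference of Man2b1 was -0.40 (adjusted p = 0.097), and without control 5DPI replicate 4 it was -0.11. With the library set as a term Man2b1 had -0.46, Sgsh 0.25, Ids -0.01, Naglu -0.24, Idua -0.57 and Arsb 0.04, and none of these 6 passed (edgeR adjusted p from 0.38 to 1.00).

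**Figure D2:**
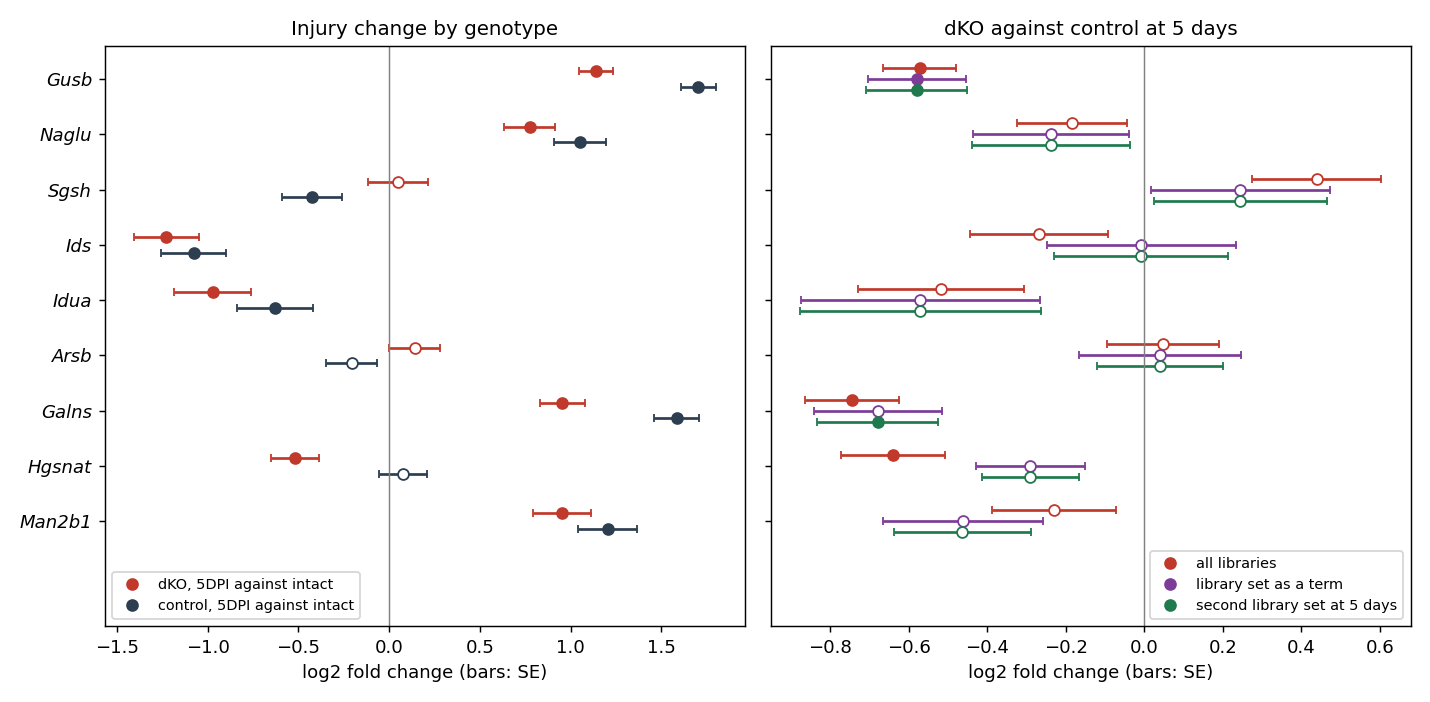
Log2 fold changes with SE for each of the 9 genes (rows); filled points have an adjusted p below 0.05. The left panel shows 5DPI against intact nerve in dKO and in control mice, with Gusb at 1.14 and 1.70; the right panel shows dKO against control at 5 days in all libraries, with the library set as a term and within the second set, where Hgsnat moves to -0.29 and Gusb stays at -0.58.

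In intact nerve 0 of the 9 members were called between genotypes with edgeR, 0 of them had groups without overlap, and 0 had an unadjusted p below 0.05. Neither DESeq2 nor limma-voom called any. Of all models 0.00447% were called and 14.6% had groups without overlap. The estimates ran from -0.30 for Arsb (95% interval -0.60 to 0.00) to 0.09 for Naglu (-0.21 to 0.40). Gusb, at -0.01, had an interval of -0.21 to 0.19, Galns, at -0.12, one of -0.38 to 0.14, and Hgsnat, at -0.04, one of -0.33 to 0.24. For Galns and Hgsnat these intervals do not reach the differences of -0.74 and -0.64 measured at 5 days, nor does that of Gusb reach -0.57. With the library set as a term the 5-day difference of Hgsnat was -0.29, which lies within its intact interval. Those of Gusb (-0.58) and Galns (-0.68) in that fit lie outside theirs. The 5-day differences carry SEs of their own, and Galns and Hgsnat did not pass the direct test given next.

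The difference of the injury changes (dKO minus control) asks directly whether the response to transection depended on genotype. It was called for Gusb alone, at -0.56 (SE 0.13, edgeR adjusted p = 0.032), so Gusb rose less in dKO nerve. Of all models 2.9% were called, 0.737% higher and 2.17% lower. Galns had -0.63 (SE 0.17, adjusted p = 0.066) and Hgsnat -0.60 (SE 0.19, adjusted p = 0.12). In both library-set fits Gusb had -0.57, Galns -0.56 and Hgsnat -0.25, and none of these 3 passed (adjusted p from 0.16 to 0.76). In total 7 members had a negative difference and 2, Sgsh (0.47) and Arsb (0.35), a positive one, with a median of -0.28 against -0.03 over all models. The call of Gusb was kept in 7 of 23 alternative fits, while its value stayed between -0.61 and -0.44 and its adjusted p ran from 0.014 to 0.18. Of the 12 fits that left out a library it was kept without dKO 5DPI replicate 4, control 5DPI replicate 4 or control intact replicate 2, and lost without any other. Galns was called without dKO 5DPI replicate 4 (-0.75, adjusted p = 0.030), and Hgsnat without control 5DPI replicate 4 (-0.75, adjusted p = 0.013). This comparison shares its injured libraries with the comparison of genotypes at 5 days, so the values are not separate evidence. Summed over the 9 members, levels were 482 to 507 CPM in dKO 5DPI, 613 to 630 CPM in control 5DPI, 449 to 455 CPM in dKO intact and 449 to 495 CPM in control intact nerve.

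The other genes of the pathway were described from lists of its breakdown enzymes, helpers, substrates and synthesis enzymes. The background for their counts is the share of all models called. After injury 22% rose and 22.6% fell in dKO nerve, and 24.4% and 22.4% in control nerve. At 5 days 3.12% were higher and 8.97% lower in dKO nerve, and for the difference of the injury changes 0.737% and 2.17%. Of 10 other genes of glycosaminoglycan breakdown, 4 rose and 1 fell after injury in dKO nerve (median 0.24), and 8 rose and 1 fell in control nerve (median 0.99). Hexa, a subunit of beta-hexosaminidase, rose by 1.18 in dKO and 1.89 in control nerve. Hpse, the heparanase that cuts heparan sulfate chains, rose by 2.26 in dKO nerve (edgeR adjusted p = 0.0022), and Arsk, a sulfatase of glucuronic acid, fell by 1.13 there (adjusted p = 0.00017). At 5 days 4 were lower in dKO than in control nerve and 0 higher. Hexa averaged 281 ± 7.04 CPM in dKO and 477 ± 26.9 CPM in control nerve at 5 days (-0.76, edgeR adjusted p = 6.4e-05). Hyal1, a lysosomal hyaluronidase, averaged 45.1 ± 4.52 CPM in dKO and 88.6 ± 21.2 CPM in control nerve (-0.97, adjusted p = 0.0025). Hyal3, a related gene, averaged 65.2 ± 11.4 CPM in dKO and 108 ± 12.1 CPM in control nerve (-0.73, adjusted p = 0.0037). The difference of the injury changes was called for Hexa (-0.71), Hyal1 (-1.20) and Hyal3 (-1.11). Hyal1 shares 50.8% of its exon bases with Naa80 on the same strand, so its reads could be split between them, and Tmem202 on the opposite strand shares 12.8% of those of Hexa. Hyal3 shares 8.16% of its exon bases with Hyal1 and 6.06% with Naa80 on the same strand. The values of Hyal1 and Hyal3 are therefore not fully separate. With the library set as a term the list had 1 gene lower at 5 days and 0 for the difference.

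Of 10 other genes that remove sugars from glycoproteins, 2 rose and 2 fell in dKO nerve after injury and 3 rose and 2 fell in control nerve. Manba, the beta-mannosidase, rose by 0.59 in dKO nerve (edgeR adjusted p = 0.0027), and Fuca1, the lysosomal fucosidase, by 0.68 in control nerve (adjusted p = 0.00022). Neu1, the lysosomal sialidase, fell in both (-0.45 in dKO and -0.47 in control nerve). At 5 days 1 was lower in dKO nerve. This was Ctsa, the protective protein that keeps beta-galactosidase and sialidase stable, with 286 ± 25.7 CPM in dKO and 428 ± 11.8 CPM in control nerve (-0.58, edgeR adjusted p = 0.0012). Of 9 genes of enzyme sorting and activation, 1 rose and 5 fell in dKO nerve after injury, and 4 rose and 4 fell in control nerve. Sort1, a sorting receptor, fell in both (-1.30 in dKO and -1.65 in control nerve), and so did Gnptab, which makes the phosphate tag of lysosomal enzymes (-0.83 in dKO and -0.94 in control nerve). At 5 days 1 gene of this list was lower in dKO nerve: Scarb2, which carries glucocerebrosidase to lysosomes, with 85.6 ± 13.0 CPM in dKO and 221 ± 35.7 CPM in control nerve (-1.37, adjusted p = 6.7e-05). The difference of the injury changes was called for Ctsa (-0.59, adjusted p = 0.027) and Scarb2 (-1.22, adjusted p = 0.0069), and in these lists 0 were called for it with the library set as a term. Pltp on the opposite strand shares 10.5% of the exon bases of Ctsa.

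The lists of substrates and of the enzymes that build them come next. Of 25 proteoglycan core proteins, 10 rose and 4 fell after injury in dKO nerve and 8 rose and 8 fell in control nerve. Cspg5 (neuroglycan C) rose by 4.03 in dKO and 3.46 in control nerve, and Cd44, a hyaluronan receptor that can carry chains, by 2.40 in dKO and 2.64 in control nerve. At 5 days 6 were higher and 1 lower in dKO than in control nerve, with a median difference of 0.26. Hspg2 (perlecan) averaged 1698 ± 73.9 CPM in dKO and 891 ± 34.8 CPM in control nerve (0.93, edgeR adjusted p = 6.6e-05; SD, n = 3 each). Bcan (brevican) averaged 5.07 ± 0.794 CPM in dKO and 0.961 ± 0.255 CPM in control nerve (2.39, adjusted p = 0.00048). Gpc3, a glypican, averaged 589 ± 70.7 CPM in dKO and 374 ± 27.4 CPM in control nerve (0.65, adjusted p = 0.0060). All 3 were also called for the difference of the injury changes, the 3 core proteins that were (Hspg2 0.92, Bcan 2.35 and Gpc3 0.77). The lower gene, named after its value was seen, was Cd44 (-0.74, adjusted p = 0.012), and without control 5DPI replicate 1 the counts were 6 and 0. After injury the 16 genes of chondroitin and dermatan sulfate synthesis had 6 rises and 4 falls in dKO nerve and 5 and 5 in control nerve. Chpf, a chain-polymerizing factor, rose by 1.46 in dKO and 1.38 in control nerve, and Chst3, a sulfotransferase, fell by 1.33 in dKO and 0.74 in control nerve. The 17 genes of heparan sulfate synthesis had 5 rises and 2 falls in dKO nerve and 6 and 1 in control nerve, with Ndst1, a sulfotransferase that starts the editing of the chain, at -0.77 in dKO and -0.83 in control nerve. Of 16 genes of chondroitin and dermatan sulfate synthesis 1 was higher in dKO nerve at 5 days (Chst15, 0.76, adjusted p = 0.041; 0 without control 5DPI replicate 1), and of 17 genes of heparan sulfate synthesis 1 was lower (Extl2, -0.57, adjusted p = 0.014). With the library set as a term 2 core proteins were higher and 0 lower at 5 days, and 0 genes of either synthesis list were called. In intact nerve 0 genes of these 6 lists were called with edgeR.

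**Figure D3:**
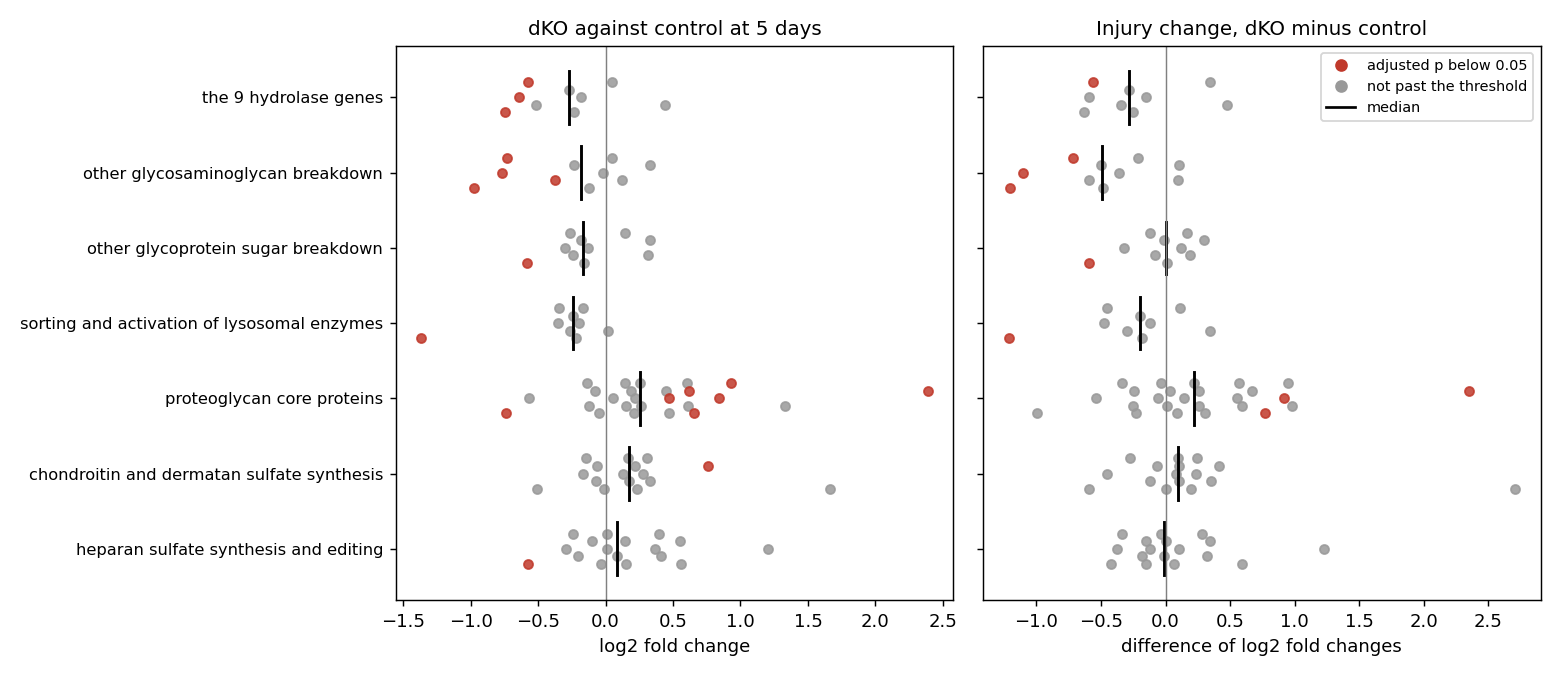
Each point is a gene of the list named on the left, red where the adjusted p is below 0.05, and black lines are medians. The left panel shows the log2 fold change of dKO against control at 5 days, with medians from -0.27 (the 9 genes) to 0.26 (core proteins); the right panel shows the injury change in dKO minus that in control nerve.

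Markers of the cells in the nerve moved with both injury and genotype, and their part in the results on the members was not tested. In whole nerve, fewer cells of a type and less RNA per cell cannot be told apart. All 14 macrophage markers rose in both genotypes after injury, and their summed level was 1559 to 2146 CPM in dKO 5DPI, 1634 to 2612 CPM in control 5DPI, 267 to 437 CPM in dKO intact and 251 to 405 CPM in control intact nerve. Between genotypes at 5 days these sums overlapped, with 1 marker higher and 1 lower in dKO nerve. These, named after their values were seen, were Cd14 (0.73) and Cd68, itself a lysosomal membrane protein (-0.87), and neither passed with the library set as a term or without control 5DPI replicate 1. All 8 markers of myelinating Schwann cells were higher in dKO nerve at 5 days, with sums of 3729 to 4723 CPM in dKO and 1054 to 1347 CPM in control nerve, and all 8 were called with the library set as a term as well. Of 7 markers of the Schwann cell lineage 5 were lower in dKO nerve at 5 days, with sums of 1603 to 1754 CPM in dKO and 2834 to 4122 CPM in control nerve, and 4 with the set as a term, 3 within the second set. Of 7 fibroblast markers 1 was higher in dKO nerve at 5 days, with sums of 10105 to 11955 CPM in dKO and 5324 to 9158 CPM in control nerve, and 0 with the set as a term or without control 5DPI replicate 1. The summed markers of T and NK cells stood at 11.9 to 31.1 CPM in dKO 5DPI and 65.9 to 267 CPM in control 5DPI, with Gzmb (lower in dKO nerve, -2.86, edgeR adjusted p = 0.021) reaching 8493 counts, while Cd3e, Cd3g, Cd3d and Cd8a each had 30 counts or fewer in every library and Cd8a was called higher in dKO nerve (adjusted p = 0.035). Neither Gzmb nor Cd8a passed with the set as a term or without control 5DPI replicate 1. Markers of endothelial, mast, fat, neutrophil, muscle and perineurial cells had 0 calls between genotypes at 5 days with edgeR, though without control intact replicate 2 the endothelial and perineurial lists had 2 higher each. Endothelial sums did not overlap, at 505 to 689 CPM in dKO 5DPI and 362 to 427 CPM in control 5DPI, nor did muscle sums, at 8.77 to 38.9 CPM in dKO 5DPI and 5.66 to 8.09 CPM in control 5DPI. In intact nerve 0 markers of any list were called between genotypes.

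Across the 12 libraries the members fell into patterns that follow the injury groups. The correlations of log2 CPM are a description over libraries that share those groups. Gusb and Galns were most alike (Pearson r = 0.974), Naglu and Man2b1 came close to that (r = 0.967), and Ids and Man2b1 were most opposed (r = -0.933). The 36 pairs had a median r of -0.15. Among 12745 genes whose log2 CPM averaged 3 or more, the gene most like Gusb was Esd (r = 0.996), that most like Galns was H2afz (r = 0.991) and that most like Hgsnat was Ydjc (r = 0.976). The nearest genes of Naglu, Ids, Idua and Man2b1 were Arf1 (r = 0.987), Xiap (r = 0.992), Gm4887 (r = 0.960) and 1110008F13Rik (r = 0.985). Arsb was nearest to Slc2a10 (r = 0.844), and Sgsh to a model whose name the file holds as a date (r = 0.825), the weakest likenesses of the 9.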

How the data were processed

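From sciatic nerves, 12 libraries of polyadenylated RNA were sequenced, 3 in each of 4 groups, with an Ion Total RNA-Seq kit, per the labels. The submitters' processing notes name mm10, DESeq2 and R 4.2.1; no source used here gives the aligner, counter, strand or annotation. The authors deposited whole-number read counts per gene model, and a signal, these counts divided by 1 size factor per library (constant within a library to 0.456%).

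The tests used edgeR 4.0.16 (R 4.3.3) on the deposited counts: filterByExpr over the groups (minimum count 10), TMM factors, 1 robust quasi-likelihood model with a mean per group, F-tests and Benjamini-Hochberg adjustment over 22384 models at 0.05. Groups came from sample titles, and the design text calls the replicates biological. Cell type marker lists (macrophage, myelinating and lineage Schwann cell, fibroblast, endothelial, T and NK, mast, neutrophil, muscle, fat, perineurial) were summed. The fit was tested on simulated data. Intervals are 95% and unadjusted.

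The members, gene lists, named-gene rule (all members, the nearest gene of each, up to 3 called genes per list with the smallest p) and alternatives were chosen with earlier results of these data known. Alternatives were DESeq2 1.42.0, limma-voom (limma 3.58.1), other scalings and filters, the authors' normalized values on a log2 scale, a replicate block, library-set fits and leaving out each library. The second library set comprises libraries with over 2 times the median number of olfactory receptor genes read. List genes outside the naming rule are mostly counted without being named, and 1 result is not reported here.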

Additional observations from a re-analysis of the deposited data

Results flagged for a closer look

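The injury change of Gusb differed between genotypes in the test of the difference itself, at -0.56 (dKO minus control, edgeR adjusted p = 0.032). Every injured library of Gusb lay above every intact one in both genotypes. Groups without overlap were found for 61% of all models in dKO and 53.3% in control nerve. The rise of Gusb was 1.14 in dKO and 1.70 in control nerve. The call for the difference was kept in 7 of 23 alternative fits.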

How the results depend on the processing

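Each result was recomputed under the alternatives. With the library set as a term, members higher and lower after injury in dKO nerve numbered 2 and 0 (4 and 3 in the fit without it), and 1 member was lower in dKO nerve at 5 days (3 without it). Calls over all models were also fewer with that term. They numbered 4299 for injury in dKO nerve (9997 without it), 515 at 5 days (2707) and 172 for the difference of the injury changes (650). With DESeq2 and with the replicate block 1 member, Sgsh, was higher in dKO nerve at 5 days (0 in the full fit). With only control replicate 4 kept at 5 days, Ids changed by -1.36, Idua by -0.59 and Sgsh by -0.25 after injury in control nerve. That comparison sets an injured library of the second set against intact libraries of the first. Leaving out single libraries gave 1 to 3 falling members in control nerve, 3 to 4 lower members at 5 days and 0 to 2 members lower for the difference of the injury changes, where the full fit called 1. For that difference DESeq2 called 2, and 0 were called with DESeq2 or upper-quartile factors, the authors' values with either pseudocount (1 or 0.1), the replicate block, the set term and within the second set. The cause was not tested. In the fits within the second set the lone control library is assumed to vary like the other groups, and fits of only the groups compared give no value for the difference. Upper-quartile factors moved the median of all models to 0.19 for injury in dKO and 0.11 in control nerve.

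Only members that did not pass turned their direction. Sgsh in dKO injury came to -0.25 with the set term, and Ids in the difference to 0.11 in both set fits. Hgsnat in control injury came to -0.29 with only control replicate 4 kept at 5 days. With the replicate block Arsb at 5 days came to -0.030, and in intact nerve Gusb to 0.0092, Hgsnat to 0.058 and Man2b1 to -0.0078. Man2b1 with upper-quartile factors came to -0.00021. Leaving out single libraries gave ranges of -0.050 to 0.12 (Sgsh, dKO injury), -0.097 to 0.22 (Hgsnat, control injury), -0.093 to 0.19 (Arsb, 5 days) and -0.34 to 0.038 (Ids, difference). In intact nerve these ranges were -0.071 to 0.054 (Gusb), -0.037 to 0.27 (Naglu), -0.16 to 0.11 (Sgsh), -0.24 to 0.11 (Ids), -0.092 to 0.026 (Hgsnat) and -0.070 to 0.14 (Man2b1). Of 1071 values of single members under an alternative, 996 kept direction and side of the threshold, 39 lost a call, 6 gained one and 30 changed sign.

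The labels do not tie replicate numbers to mice. Deviations of same-numbered libraries correlated at -0.21 to 0.31. Between dKO 5DPI and dKO intact they correlated at 0.29, 0.31 and 0.004, so a shared mouse is not shown for every pair, and the numbers were not taken as pairs. Control 5DPI replicate 1 held 10712 Xist and 244 Y-linked counts, and control intact replicate 1 held 3 and 3068. The same-numbered libraries of that pair thus differed in sex-linked reads. The replicate block gave libraries of the same number a shared term across groups, also across genotypes. It therefore does not model nerves of the same mouse. With the replicate block Sgsh at 5 days was called (0.51, edgeR adjusted p = 0.048). Idua after injury in control nerve was not (-0.52, adjusted p = 0.071), and Gusb lost the difference (-0.57, adjusted p = 0.10).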
